A study of Mus musculus with 10 samples.

Results

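Ketone body synthesis and use was followed through 5 genes of the left ventricle, Bdh1, Bdh2, Oxct1, Acat1 and Slc16a1, chosen by symbol from the 55385 genes of the deposited count table. All 5 were found and 4 passed the filter on low counts, Bdh2 being the exception, among 18491 genes that passed in all. The HFpEF group, 5 libraries, came from C56Bl6 mice (the strain as spelled in the labels) kept for 6 weeks on High-Fat + L-NAME (a drug that blocks nitric oxide synthase). The Control group, also 5 libraries, came from C56Bl6 mice on a standard diet over the same 6 weeks. The regimen is a mouse model of heart failure with preserved ejection fraction (HFpEF), and the comparison asks which ventricular transcripts differed after it. No group here had the fat or the inhibitor alone, so their parts cannot be told apart, and age and sex are not given in the labels.

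Ketone bodies are made mainly in liver mitochondria. There the thiolase Acat1 joins acetyl-CoA units at the head of the route to acetoacetate, and Bdh1 reduces acetoacetate to beta-hydroxybutyrate. The heart takes both up from blood through monocarboxylate transporters such as the Slc16a1 product MCT1 and burns them: Bdh1 oxidises beta-hydroxybutyrate back to acetoacetate, Oxct1 charges acetoacetate with CoA from succinyl-CoA, and Acat1 splits the product into acetyl-CoA. Hepatocytes lack Oxct1, so the liver exports ketone bodies rather than using them.

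The genes of this route did not move as a block. Acat1 rose 1.34-fold, called in all 20 alternative settings, and Oxct1 fell by 22.2%, called in 16 of them. Bdh1 averaged 19.8 CPM in HFpEF against 46.5 CPM in Control with no overlap between the groups, yet it missed the threshold of the test. Slc16a1 was not called and Bdh2 was close to undetected. Among pathway genes outside these 5, the thiolases Acaa2 and Hadhb and the coactivator gene Ppargc1a rose, though Ppargc1a lost its call in some alternative settings.

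Values are CPM, the usual depth-normalised count, relative to library totals scaled by trimmed mean of M-values (TMM). A log2 fold change sets HFpEF over Control, so a positive one means higher in HFpEF, and comes with its standard error (SE) and, for members, a 95% interval. Genes were tested by edgeR (quasi-likelihood), p-values were adjusted by Benjamini-Hochberg over all 18491 genes, and a gene was called below an adjusted p of 0.05. At that threshold 3.24% of genes tested were higher and 2.09% lower, 5.33% in either direction, and CPM did not overlap between the groups in 6.81%. Under the other rules used, 10.6% were higher and 9.91% lower at an unadjusted edgeR p below 0.05. DESeq2 called 5.43% higher and 3.06% lower, shares taken over 17057 genes rather than 18491. Limma voom called 3.07% higher and 1.84% lower, and edgeR without the robust option 3.27% higher and 2.12% lower. Library totals ran from 31286355 to 33604554 counts in HFpEF and from 31555001 to 46108710 in Control, the deepest being Control 4 and Control 5. HFpEF 1 stood apart from the rest of its group over all genes tested. Chi-square per degree of freedom was 9.35 to 16.2 between it and the other HFpEF libraries, and 4.61 to 7.61 among those. Between Control libraries it was 6.47 to 26.95, and between Control 5 and the other Control libraries 11.9 to 26.95. The measure grows with depth, and the upper Control values come from pairs with the deep Control 4 or Control 5. Among Control 1, Control 2 and Control 3, closer in depth to HFpEF, it was 6.47 to 10.98. HFpEF 1 was above that range against HFpEF 2, HFpEF 3 and HFpEF 4 (13.48, 16.2 and 14.74), and within it against HFpEF 5 (9.35). Mitochondrial transcripts took 36.2% to 38.5% of counts in HFpEF and 33.6% to 37.5% in Control. Whether every library is its own mouse is not stated in the labels, so the p-values reflect only how far these libraries spread, which may be technical.

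Cardiomyocyte markers, summed over 9 genes, lay between 24409 and 26646 CPM in HFpEF and between 25302 and 26818 CPM in Control, and 1 of them, Tnnt2, was called lower. The lowest sum of all was that of HFpEF 1. Hepatocyte markers, 5 genes with Alb among them, summed to between 0.0309 and 2.01 CPM in HFpEF and between 0.0595 and 0.157 CPM in Control; the upper end in HFpEF is HFpEF 3 alone, and the other HFpEF libraries had at most 0.0999 CPM. The white fat markers summed to at most 0.717 CPM in HFpEF and 1.04 CPM in Control. The brown fat marker Ucp1 had 0 counts in all 10 libraries, while Cidea, which made up nearly all of that list's 10.8 to 13.4 CPM in HFpEF and 5.34 to 8.77 CPM in Control, was called higher. Endothelial markers summed to between 2334 and 2552 CPM in HFpEF and between 2066 and 2330 CPM in Control. Without Cd36, a fatty acid transporter also made by cardiomyocytes, they overlapped, at 971 to 1147 CPM in HFpEF and 1025 to 1194 CPM in Control. Cd36 was called higher and Egfl7, another of the 7, lower, with a log2 fold change of -0.30 ± 0.07 (SE). Atrial markers summed to 15.3 to 29.3 CPM in HFpEF and 37.2 to 58.3 CPM in Control, nearly all of it Nppa, a natriuretic peptide gene that was called lower. Sums overlapped for fibroblast markers (457 to 499 CPM in HFpEF, 405 to 515 CPM in Control), smooth muscle and pericyte markers (746 to 853 CPM in HFpEF, 691 to 806 CPM in Control), macrophage markers (73.2 to 89.1 CPM in HFpEF, 84.2 to 123 CPM in Control), red blood cell markers (411 to 711 CPM in HFpEF, 439 to 634 CPM in Control) and skeletal muscle markers (17.1 to 113 CPM in HFpEF, 68.3 to 243 CPM in Control), with 0 genes called among these 5 lists. Of all genes tested, 5.33% were called. All 6 macrophage markers nonetheless averaged lower in HFpEF, with log2 fold changes from -0.40 to -0.21 (smallest adjusted p 0.0664 by edgeR, for Cd68). Acta1 made up nearly all of the skeletal muscle sum and was the only gene of that list tested. Without Acta1 that list summed to 0.133 to 0.595 CPM in HFpEF and 0.283 to 0.519 CPM in Control. The part of these differences in the results on ketone body genes was not tested. In bulk tissue, fewer cells of a type and less RNA per cell cannot be told apart.

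The sequence upstream of the start site is shown for Bdh1 and Oxct1, whose profiles over the libraries were close to each other, and for Slc16a1, whose groups overlapped. Each is 200 bases, 5′ to 3′ on the plus strand of GRCm38.p6 (mm10), ending 51 bases before a RefSeq start site, and capitals mark CG pairs.
Bdh1: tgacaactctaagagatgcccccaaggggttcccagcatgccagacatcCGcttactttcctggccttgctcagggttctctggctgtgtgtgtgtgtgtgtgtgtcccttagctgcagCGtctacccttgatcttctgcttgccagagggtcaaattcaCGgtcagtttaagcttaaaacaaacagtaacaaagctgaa
Oxct1: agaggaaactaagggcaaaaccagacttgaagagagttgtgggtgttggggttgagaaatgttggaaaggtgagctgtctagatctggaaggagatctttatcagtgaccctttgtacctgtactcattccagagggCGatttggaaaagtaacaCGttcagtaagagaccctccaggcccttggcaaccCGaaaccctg
Slc16a1: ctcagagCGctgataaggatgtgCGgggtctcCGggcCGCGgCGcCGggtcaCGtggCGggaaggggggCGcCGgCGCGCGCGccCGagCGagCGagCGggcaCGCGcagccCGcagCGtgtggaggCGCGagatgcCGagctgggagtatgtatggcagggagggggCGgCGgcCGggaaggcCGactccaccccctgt

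The windows lie at chr16:31422047-31422246, chr15:4026178-4026377 and chr3:104638414-104638613. The Slc16a1 window holds 30 CG pairs, a number reached by 2.09% of 32851 promoter windows of the same length. Those of Bdh1 and Oxct1 hold 3 each, and 45.8% of windows have at most as many. The RefSeq table matched 4 of the 5 members, all but Acat1; Bdh1 has a second start site further into the gene, whose window holds 5 CG pairs. Searched on both strands were a PPAR direct repeat (found in 0.0244% of windows), AGGTCA (11.4%, and contained in that repeat), GTAAACA (a FOXO motif, 2.58%), CACGTG (an E-box, 4.34%), GGGCGG (a GC box, 24.6%) and CCAAT (28.4%). The Bdh1 and Oxct1 windows held none of them, and that of Slc16a1 held 1 E-box and 1 GC box, which says only whether those letters stand in these windows. The whole Oxct1 window is exonic in BC037032, a noncoding gene on the opposite strand.

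Acat1 (ENSMUSG00000032047.5; protein-coding, mm10 chromosome 9, 53580522 to 53610382, minus strand), the mitochondrial acetoacetyl-CoA thiolase shared by ketone body synthesis and use, stood at 224, 249, 271, 256 and 237 CPM in HFpEF libraries 1 to 5, against 189.5, 190.5, 167, 199 and 178 CPM in Control libraries 1 to 5. Every HFpEF library was above every Control library, with HFpEF 1 the lowest of its group. The log2 fold change of 0.42 ± 0.06 (SE; 95% interval 0.29 to 0.55) had an adjusted p of 0.000906 by edgeR. Means were 247 ± 17.8 CPM in HFpEF and 185 ± 12.4 CPM in Control (SD, n = 5 each). The call was kept in all 20 alternative settings, with log2 fold changes from 0.39 to 0.46.

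Oxct1 (ENSMUSG00000022186.14; protein-coding, chromosome 15, 4026383 to 4155344, plus strand) encodes succinyl-CoA:3-oxoacid CoA transferase, the enzyme that commits acetoacetate to oxidation. It stood at 382, 455, 549.9, 499 and 505 CPM in HFpEF libraries 1 to 5, against 604, 639, 566, 591 and 673 CPM in Control libraries 1 to 5. The groups did not overlap, but HFpEF 3 came close to Control 3. The means were 478 ± 63.7 CPM in HFpEF and 615 ± 42.0 CPM in Control (SD, n = 5 each), and the log2 fold change was -0.36 ± 0.08 (SE; interval -0.54 to -0.18, adjusted p = 0.0212 by edgeR). The call ended without Control 2 (adjusted p = 0.0610), without Control 5 (0.0506), without HFpEF 2 (0.0504) and without Control 4 and Control 5 together (0.0801), while the log2 fold change stayed between -0.42 and -0.29 in all 20 settings; the adjusted p ran from 0.00175 to 0.0801.

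Bdh1 (ENSMUSG00000046598.15; protein-coding, chromosome 16, 31422280 to 31458901, plus strand), the mitochondrial beta-hydroxybutyrate dehydrogenase, stood at 5.92, 20.9, 28.9, 18.3 and 24.7 CPM in HFpEF libraries 1 to 5, against 38.7, 50.02, 42.3, 44.4 and 57.2 CPM in Control libraries 1 to 5. Every HFpEF library was below every Control library. HFpEF 1, with 189 counts, was far below the other HFpEF libraries, and it also stood apart within that group over all genes. Dixon's test on CPM, without logs, did not mark HFpEF 1 as an outlier of its group for Bdh1 (Q = 0.537, critical value 0.71). With only 5 values that test can miss an outlier, and log2 CPM was not tested. The means were 19.8 ± 8.72 CPM in HFpEF and 46.5 ± 7.26 CPM in Control (SD, n = 5 each), with a log2 fold change of -1.24 ± 0.34 (SE) and an interval from -2.03 to -0.45. Its adjusted p was 0.0825 by edgeR, so the gene was not called. Without HFpEF 1 the log2 fold change was smaller, -1.004, and the adjusted p was 0.00849. The gene was also called by DESeq2 (adjusted p = 0.0141), by limma voom (0.0180) and by edgeR without the robust option (0.0171), and in none of the other 16 of 20 settings, where the adjusted p reached 0.218. By log2 fold change alone it stood 33rd from the bottom of the 18491 genes.

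Bdh1 and Oxct1 each share exonic bases with a gene on the opposite strand. The labels do not say whether strand was used in counting, without which reads of such partners cannot be told apart. For Bdh1 the partner is Gm15743, over 13.7% of its exonic bases, which had 1 to 18 counts in HFpEF and 12 to 31 in Control. For Oxct1 it is BC037032, over 12.6%, which had 146 to 204 counts in HFpEF and 204 to 328 in Control, where Oxct1 had 12190 to 16947 in HFpEF and 18008 to 33796 in Control. Neither partner was called (log2 fold changes of -0.66 ± 0.42 and -0.24 ± 0.09, SE, 5 libraries a group). Apart from these partners, no transcript of another gene matched a transcript of the 5 members over at least 100 bases at 95% identity, a stretch that RSEM would have had to divide.

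Slc16a1 (ENSMUSG00000032902.1; protein-coding, chromosome 3, 104638668 to 104658462, plus strand), which encodes MCT1, a proton-coupled carrier of lactate, pyruvate and ketone bodies across the cell membrane, stood at 167, 178, 180.0, 169 and 153 CPM in HFpEF libraries 1 to 5, against 158, 142, 122, 153 and 177 CPM in Control libraries 1 to 5. The groups overlapped, and Control 5 was above 3 of the 5 HFpEF libraries. The means were 169 ± 10.6 CPM in HFpEF and 150.5 ± 20.4 CPM in Control (SD, n = 5 each). The log2 fold change of 0.17 ± 0.08 (SE) had an interval from -0.01 to 0.35, and the adjusted p was 0.262 by edgeR. It was called in 0 of 20 alternative settings, and its smallest adjusted p, 0.0705, came without Control 5.

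Bdh2 (ENSMUSG00000028167.15; protein-coding, chromosome 3, 135281221 to 135304426, plus strand) is a cytosolic relative of Bdh1 whose part in ketone body metabolism is less clear. It had 8, 4, 7, 9 and 6 counts in HFpEF libraries 1 to 5, against 7, 7, 6, 12 and 16 counts in Control libraries 1 to 5. The sums were 34 counts in HFpEF (exact Poisson 95% interval 23.5 to 47.5) and 48 in Control (35.4 to 63.6), intervals that cover counting error only. With no filter on low counts its log2 fold change was -0.17 ± 0.37 (SE; interval -0.92 to 0.58; adjusted p = 0.880 by edgeR over 35413 genes), so a difference was not detectable at this depth.

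**Figure D1:**
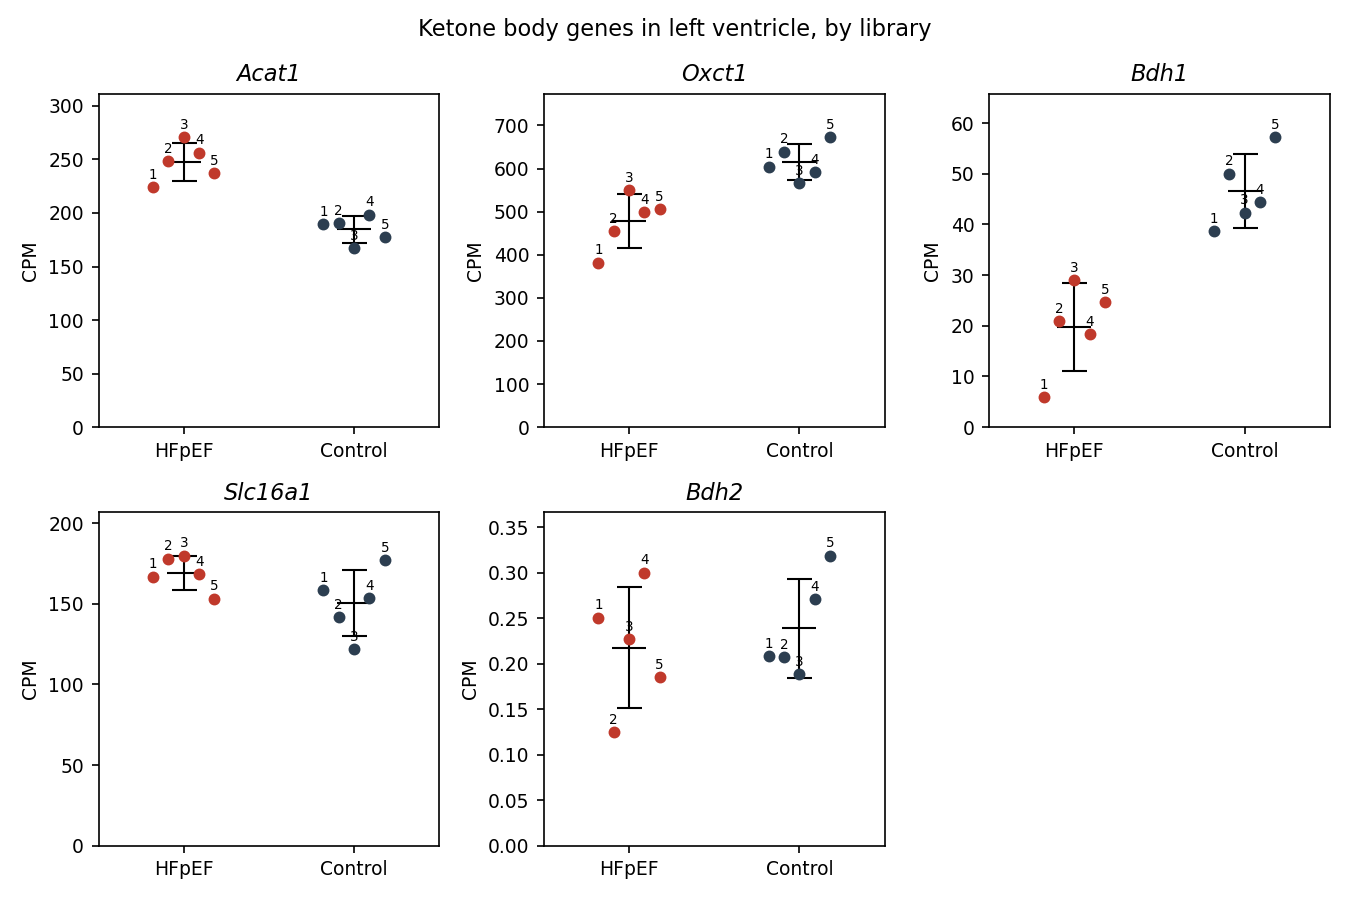
CPM of the 5 member genes in each library, with HFpEF in red and Control in dark blue; numbers are the library numbers, and bars are the mean ± SD of 5 libraries. Acat1 lies higher in every HFpEF library than in any Control library, Oxct1 and Bdh1 lower, and the groups overlap for Slc16a1 and Bdh2.

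Of the 4 members tested, 1 was called higher, 1 lower and 2 were not called, and 3 had groups of CPM that did not overlap. In all genes tested, 3.24% were higher, 2.09% lower and 6.81% did not overlap. The median log2 fold change was -0.10 over the 4 members and -0.01 over all genes tested. Acat1 and Oxct1, which act in consecutive steps, moved in opposite directions.

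Levels per length, in CPM per kilobase of exon, put the members in the same order in both groups, Oxct1, Acat1, Slc16a1, Bdh1 and Bdh2 from high to low. In HFpEF the means were 129 ± 17.2 for Oxct1, 65.8 ± 4.75 for Acat1, 38.3 ± 2.40 for Slc16a1, 5.08 ± 2.24 for Bdh1 and 0.0512 ± 0.0156 for Bdh2 (SD, n = 5). In Control they were 166 ± 11.4 for Oxct1, 49.1 ± 3.29 for Acat1, 34.0 ± 4.60 for Slc16a1, 11.97 ± 1.87 for Bdh1 and 0.0562 ± 0.0128 for Bdh2 (SD, n = 5). No neighbours in this order overlapped within either group. The order was the same with the length of the longest transcript.

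The distance from Oxct1, the highest, to Bdh1, among the lower, was wide in both groups. Per kilobase, Oxct1 lay between 103 and 149 in HFpEF and between 153 and 182 in Control, while Bdh1 lay between 1.52 and 7.44 in HFpEF and between 9.95 and 14.7 in Control. These are levels of transcripts, not of enzymes.

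**Figure D2:**
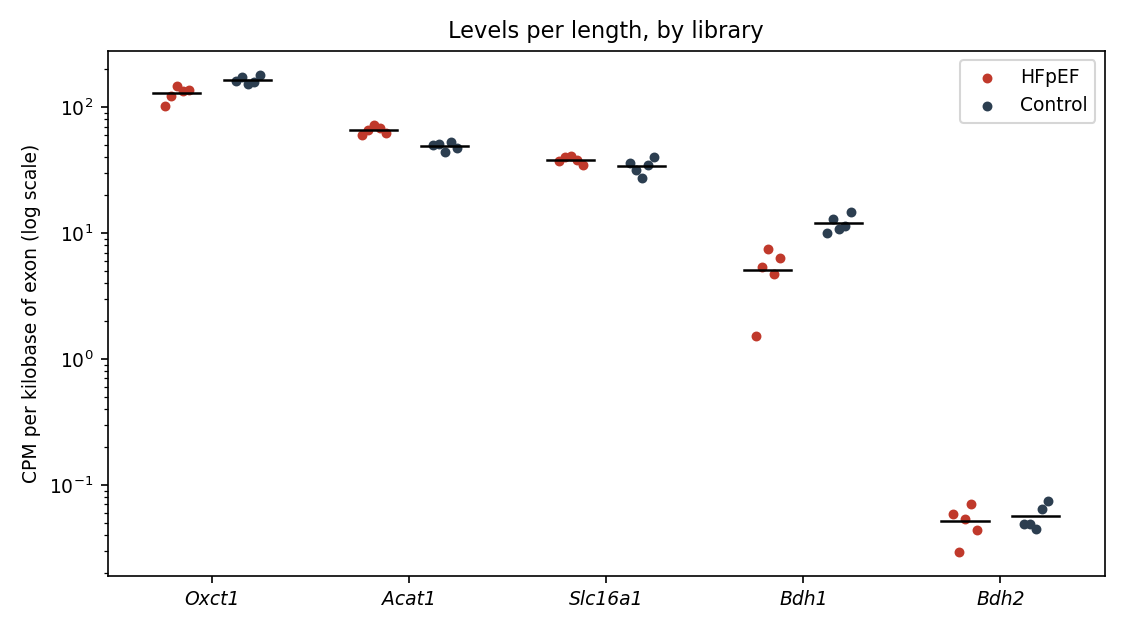
CPM per kilobase of exon on a log axis for each library, HFpEF in red left of Control in dark blue, with a line at each mean. The order of the 5 genes is the same in both groups, and Bdh1 averages 5.08 in HFpEF and 11.97 in Control.

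Ratios within a library do not depend on how libraries are scaled. The ratio of Acat1 to Oxct1 counts lay between 0.469 and 0.588 in HFpEF and between 0.264 and 0.336 in Control. That of Bdh1 to Oxct1 lay between 0.0155 and 0.0526 in HFpEF, lowest in HFpEF 1, and between 0.0640 and 0.0850 in Control. That of Slc16a1 to Oxct1 lay between 0.303 and 0.437 in HFpEF and between 0.216 and 0.263 in Control. All 3 ratios were apart in the groups, that of the transporter included, although its CPM overlapped. Oxct1, whose own CPM did not overlap, is the denominator of each, so the ratios are not separate observations. That of Acat1 to Oxct1 had to be apart, since both genes were already apart in opposite directions. The ratios are given as a description, without a test.

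**Figure D3:**
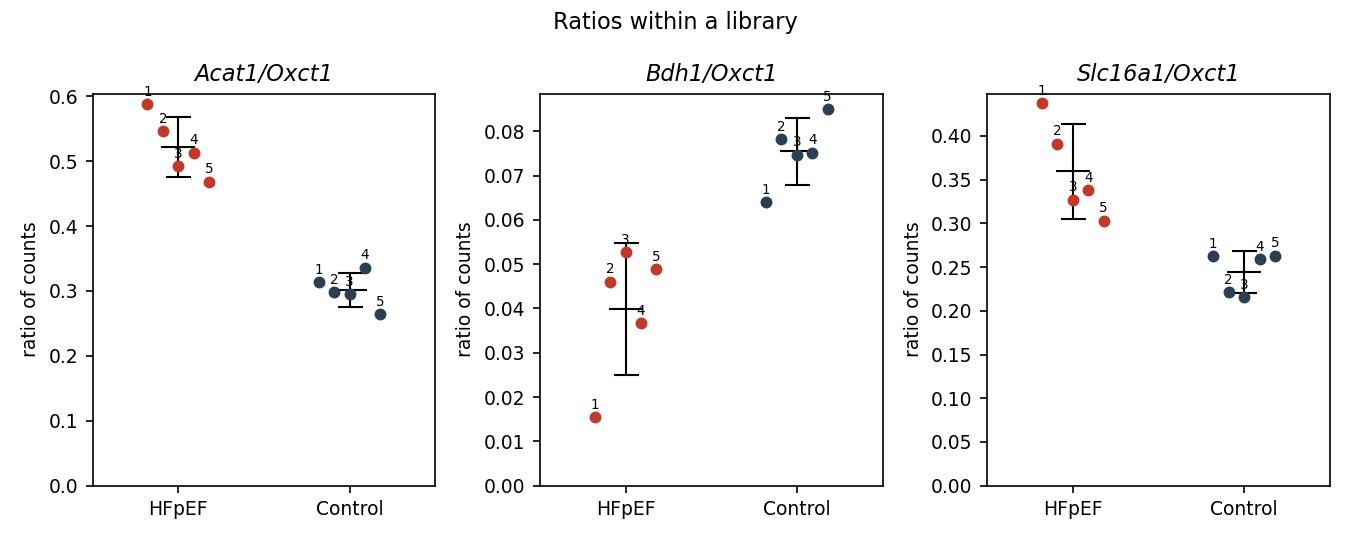
Ratio of counts of Acat1, Bdh1 and Slc16a1 to those of Oxct1 in each library, HFpEF in red and Control in dark blue, with library numbers and bars for the mean ± SD of 5 libraries. Acat1/Oxct1 averaged 0.522 in HFpEF and 0.301 in Control, and Bdh1/Oxct1 averaged 0.0399 in HFpEF and 0.0754 in Control.

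Bdh1 and Oxct1 varied alike. Profiles of log2 CPM were standardised over the 10 libraries and compared by root mean square difference, where the median over 11650 other genes was 1.31. For Bdh1 the nearest of the genes reported here were Oxct1 (0.263), the cadherin gene Cdh4 (0.264) and Epn3, an epsin of endocytosis (0.309). For Oxct1 they were Polr3g, a subunit of RNA polymerase III (0.243), Bdh1 (0.263) and the uracil glycosylase gene Ung (0.272). Within HFpEF both were lowest in library 1 and highest in library 3, and within Control both were highest in library 5, but Bdh1 was lowest in Control 1 and Oxct1 in Control 3. Epn3 averaged 8.75 CPM in HFpEF and 16.6 CPM in Control and was called lower (log2 fold change -0.93 ± 0.15, SE, n = 5 each; adjusted p = 0.00525 by edgeR), while Cdh4, Polr3g and Ung were not called (adjusted p from 0.0673 to 0.145).

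The nearest to Acat1 were Ank, a pyrophosphate transporter (0.107), the kinase gene Cdk16 (0.127) and Vwa7 (0.148), all called higher, with log2 fold changes of 0.44 ± 0.06, 0.29 ± 0.05 and 0.61 ± 0.08 (SE, n = 5 each; adjusted p from 0.000568 to 0.00263 by edgeR). For Slc16a1 they were Wdr83os (0.264), the orphan nuclear receptor gene Nr2f6 (0.304) and Smim13 (0.326), of which none was called (adjusted p from 0.149 to 0.357). These likenesses take in the difference between the groups as well as the spread within them.

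**Figure D4:**
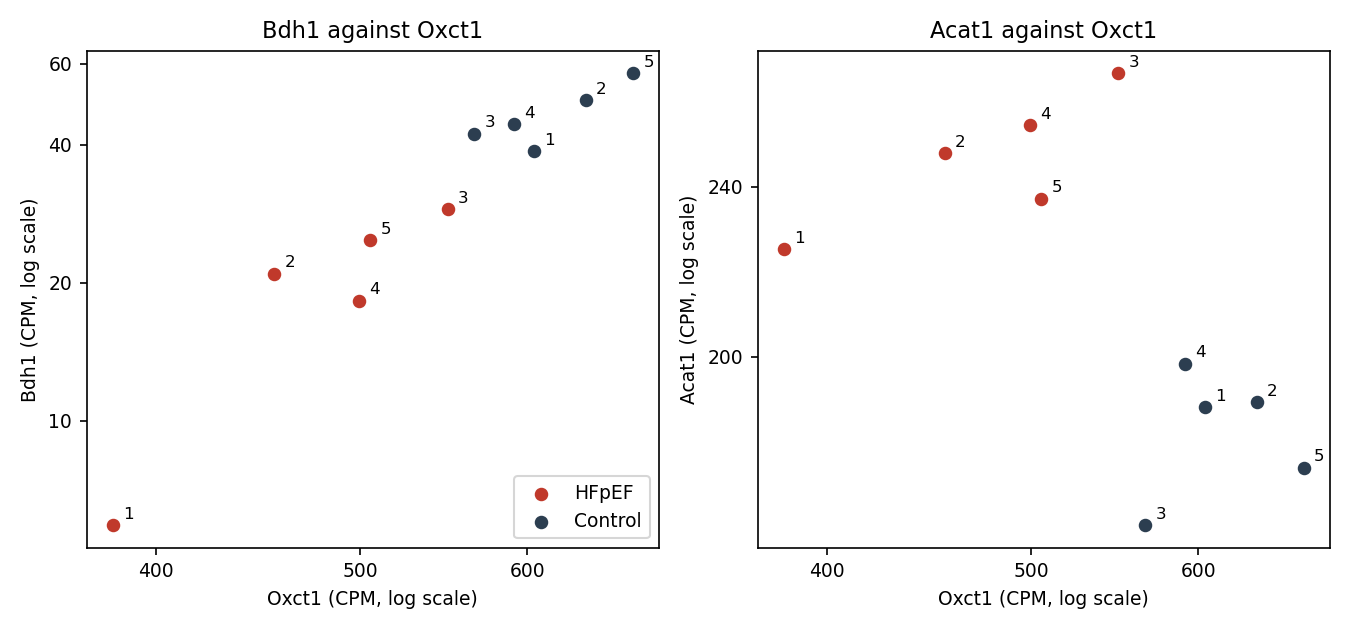
CPM of Bdh1 against Oxct1 (left) and of Acat1 against Oxct1 (right) on log axes, 1 point a library with its number, HFpEF in red and Control in dark blue. HFpEF 1 has the lowest Bdh1 and Oxct1, 5.92 and 382 CPM, and the lowest Acat1 of its group, 224 CPM.

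Among 46 genes of 6 lists on ketone bodies and their neighbours, the members included, 31 were tested: 4 rose, 1 fell and 26 were not called. That is 12.9% higher and 3.23% lower, against 3.24% and 2.09% of all genes tested, with a median log2 fold change of -0.03 against -0.01. The lists were chosen with earlier results of these data known, so the shares are a description and no test. Acaa2 and Hadhb, among the 4 that rose, are thiolases of fatty acid oxidation. In 7 of the 31 the groups did not overlap, against 6.81% of all genes.

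Of 3 tested genes of use, Acat1 rose, Oxct1 fell and Bdh1 was not called. Acat1 and Bdh1 were also the 2 tested genes on the list of synthesis. The relatives Oxct2a and Oxct2b, known from testis, had at most 1 count in any library.

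A further list, of other reactions of acetoacetate and short-chain acids, mixes cytosolic and mitochondrial enzymes. Of its 7 tested genes, 0 were called by edgeR, 0 at an unadjusted p below 0.05, and 0 by DESeq2 or limma voom. Over all genes edgeR called 5.33%, and at that unadjusted p 10.6% were higher and 9.91% lower. Beside those shares, 0 among 7 genes says little. The mitochondrial acetyl-CoA synthetase gene Acss1, the most abundant, had a log2 fold change of 0.08 ± 0.07, and that of Acat2, the cytosolic thiolase, was -0.27 ± 0.13 (SE, 5 libraries a group; adjusted p = 0.536 and 0.257 by edgeR). Aacs, which charges acetoacetate in the cytosol for lipid synthesis, was at 1.63 ± 0.116 CPM in HFpEF and 1.60 ± 0.239 CPM in Control (SD, n = 5 each).

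Of 13 tested genes of monocarboxylate transport and lactate exchange, 0 were called by edgeR; 1 was higher and 2 lower at an unadjusted p below 0.05, DESeq2 called 2 lower and limma voom 0. Over all genes, edgeR called 5.33%, and 10.6% were higher and 9.91% lower at that unadjusted p. DESeq2 called 5.43% of 17057 genes higher and 3.06% lower, and limma voom 3.07% and 1.84% of all genes tested. Ldhb, the heart-type lactate dehydrogenase subunit, stood at 384 ± 35.8 CPM in HFpEF and 446 ± 31.0 CPM in Control (SD, n = 5 each; log2 fold change -0.22 ± 0.07, SE; adjusted p = 0.0799 by edgeR). Slc16a7, which encodes the high-affinity carrier MCT2 and was chosen after its values were seen, had 5.26 ± 0.462 CPM in HFpEF and 7.24 ± 1.70 CPM in Control (adjusted p = 0.0857 by edgeR). The pair that DESeq2 called was Ldhb and Slc16a7. The higher one at an unadjusted p was Ldha, the partner subunit of Ldhb, at 119 ± 4.63 CPM in HFpEF and 108 ± 6.58 CPM in Control (log2 fold change 0.14 ± 0.05, SE; adjusted p = 0.121 by edgeR). Bsg, the chaperone that brings MCT1 to the membrane, had a log2 fold change of 0.07 ± 0.09 (SE; adjusted p = 0.735 by edgeR).

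Of 6 tested thiolases, 3 rose and 0 fell by edgeR, against 3.24% higher and 2.09% lower over all genes. At an unadjusted p below 0.05, or by DESeq2 or limma voom, 0 were lower. By those rules 9.91%, 3.06% (of 17057 genes, for DESeq2) and 1.84% of genes were lower, so 0 lower among 6 says little. With Acat1 rose Acaa2 and Hadhb, thiolases of mitochondrial fatty acid oxidation, with log2 fold changes of 0.49 ± 0.06 and 0.50 ± 0.06 (SE, n = 5 each; adjusted p = 0.000347 and 0.000210 by edgeR). Acaa2 averaged 344 ± 11.4 CPM in HFpEF and 244 ± 22.2 CPM in Control, and Hadhb 1124 ± 39.7 CPM in HFpEF and 793 ± 60.4 CPM in Control (SD, n = 5 each). Scp2, a peroxisomal thiolase and sterol carrier gene, was at 94.0 ± 4.92 CPM in HFpEF and 96.7 ± 3.25 CPM in Control and was not called (adjusted p = 0.685).

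Of 4 tested receptors and regulators, 1 rose and 0 fell by edgeR. At an unadjusted p below 0.05, 2 were higher and 1 lower, and DESeq2 and limma voom each called 1 higher and 0 lower. Over all genes 3.24% were higher and 2.09% lower by edgeR, and 10.6% and 9.91% at that unadjusted p. DESeq2 called 5.43% of 17057 genes higher and 3.06% lower, and limma voom 3.07% and 1.84% of all genes. Ppargc1a, a coactivator of PPAR alpha and of mitochondrial genes, was the riser, at 121 ± 19.6 CPM in HFpEF and 85.7 ± 8.47 CPM in Control (SD, n = 5 each; adjusted p = 0.0199 by edgeR). Its call ended without Control 3 (adjusted p = 0.0588) or HFpEF 3 (0.0575). Ppara, the fatty acid receptor PPAR alpha, was the other higher at an unadjusted p, at 31.2 ± 3.00 CPM in HFpEF and 27.6 ± 2.48 CPM in Control (adjusted p = 0.192 by edgeR). Sirt3, a mitochondrial deacetylase, was at 12.2 ± 1.04 CPM in HFpEF and 14.1 ± 0.423 CPM in Control, without overlap (adjusted p = 0.0813 by edgeR), and shares exonic bases with Psmd13 and Ric8a on the opposite strand. Esrra, a nuclear receptor gene of mitochondrial metabolism, had a log2 fold change of 0.03 ± 0.05 (SE).

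Of the 46 genes, 15 were below the filter. Bdh2 and Acsm3, with up to 9 and 4 counts in HFpEF and up to 16 and 17 in Control, and Hcar1, a lactate receptor gene, with 2 to 10 in HFpEF and 3 to 11 in Control, were the most counted of them. Hcar2, the receptor for beta-hydroxybutyrate, had at most 1 count in HFpEF and 2 in Control, Ffar3 and Acsm1 had 0 in all libraries, and Hmgcll1, Oxct2a, Oxct2b, Slc5a8, Slc5a12, Acaa1b, Fgf21, Hnf4a and Foxa2 had at most 4 in HFpEF and 6 in Control.

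**Figure D5:**
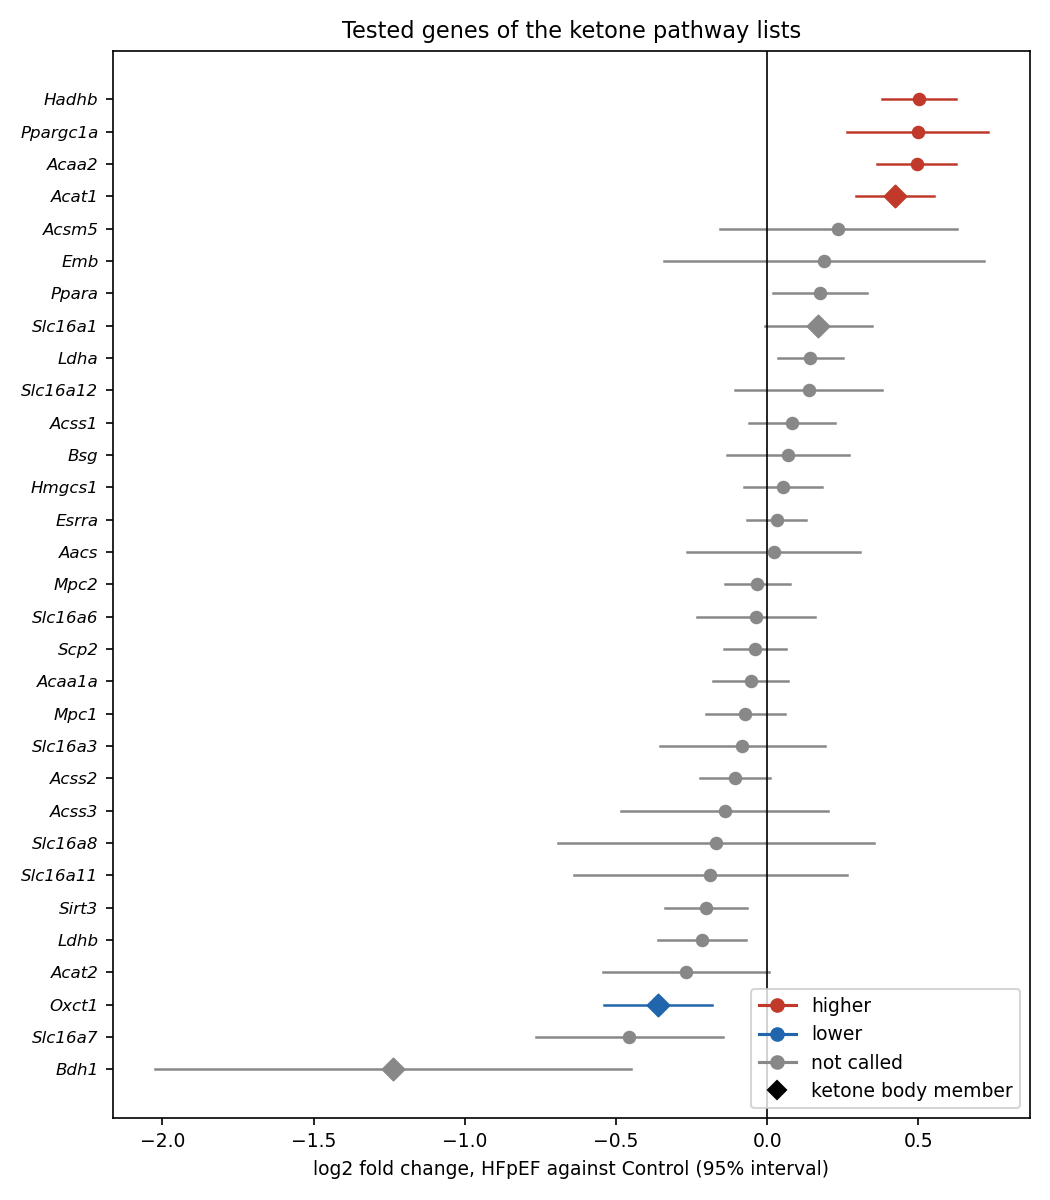
Log2 fold change, HFpEF against Control, with 95% intervals for the 31 tested genes of the pathway lists, coloured by edgeR's call; diamonds are the member genes. Bdh1 has the lowest value, -1.24, with a wide interval, and the other tested members lie between -0.36 and 0.42.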

How the data were processed

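Total RNA of 10 left ventricle samples was depleted of ribosomal RNA and sequenced, per the labels' protocols. Per the submitters' processing notes, the tools include Bowtie2 2.1.0 and RSEM 1.2.15 and the build mm10, with no order stated. RSEM divides reads that match several transcripts, so the deposited values were taken to be estimated counts per gene, unnormalized; all were already whole, so rounding left them unaltered. The 92 ERCC rows had 0 counts and were left out.

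Genes passed edgeR's filterByExpr at a minimum count of 10. Group was the sole term of the quasi-likelihood model (edgeR 4.0.16 in R 4.3.3; robust option, TMM), checked on simulated data. No pair of replicates looked like one library deposited again: their counts differed beyond sampling noise. Gene positions and lengths came from GENCODE M21 (mm10), upstream sequences from RefSeq (GRCm38.p6). Log2 CPM for profiles used an offset of 0.5. Depth limits precision as given beside Bdh2.

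Alternatives were RLE and upper quartile scaling, mitochondrial transcripts left out, other filters, DESeq2 1.42.0, limma voom 3.58.1, no robust option, a replicate block and leaving out libraries. Dropping Control 4 and Control 5 together was chosen after seeing the data. The members and gene lists were chosen with earlier results of these data known. A few genes of the lists and of the profile ranking are not reported here and are left out of list counts. Genes named were the members, all called list genes, the most abundant and smallest-p uncalled gene of each list, and for each member the 3 nearest profiles of genes whose log2 CPM averaged at least 1; others, Aacs, Bsg, Ldha and Ppara among them, were chosen after their values were seen.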

Additional observations from a re-analysis of the deposited data

How the results depend on the processing

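The directions of Acat1, Oxct1, Bdh1 and Slc16a1 were the same in all 20 alternative settings, and the calls of Acat1, Acaa2 and Hadhb were kept in each. Bdh1 became called with DESeq2 (log2 fold change -1.23), limma voom (-1.40) and no robust option (-1.24). There members called lower numbered 2 each and pathway genes called lower 4, 2 and 2. Those settings called 3.06% (of 17057 genes), 1.84% and 2.12% of genes lower, against 2.09%. Without the 2 deepest libraries Oxct1 (-0.33) was no longer called, leaving 0 members and 0 pathway genes lower. In that setting 773 of 18881 genes tested were called in either direction, so 0 among so few genes says little. Leaving out each library in turn gave log2 fold changes of -1.41 to -1.004 for Bdh1 and -0.42 to -0.29 for Oxct1, 0 to 2 members called lower, 0 to 2 pathway genes called lower, and 554 to 1101 calls over all genes, against 985. The cause of these changes was not tested. The call of Ppargc1a also ended with no filter (adjusted p = 0.0666) and without the 2 deepest libraries (0.0864).

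The labels give both groups replicate numbers 1 to 5 but no pairing, and deviations of same-numbered libraries correlated between -0.154 and 0.126. With the replicate block Bdh1 was at -1.35 (adjusted p = 0.132), Oxct1 at -0.37 (0.0285), Acat1 at 0.42 (0.00563) and Slc16a1 at 0.18 (0.361); pathway genes called higher numbered 3, Ppargc1a (0.0971) dropping out, and 744 genes were called in all. Depth limits Bdh2 and the 14 other genes below the filter.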
